A study of Mus musculus with 2 samples.

Results

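The genes described here are 10 genes of DNA replication and cell division: the helicase subunits Mcm2, Mcm3, Mcm4, Mcm5, Mcm6 and Mcm7, the sliding clamp Pcna, the proliferation marker Mki67, the DNA topoisomerase Top2a and the mitotic regulator Birc5. They were chosen by name, as every probe for gene transcripts that the array files call by these symbols, which gave 10 of 27573 genes and 15 of 41174 probes on the array. RNA came from pancreatic lymph nodes of female NOD mice aged 16 weeks, which are prone to autoimmune diabetes. Each of 2 hyperglycemic mice, with blood glucose above 500 mg/dl, was labelled with Cy5 on its own array, and both arrays carried the same Cy3-labelled pool of 2 euglycemic mice, below 200 mg/dl. The replicates are the hyperglycemic mice (n = 2), while the pool counts as 1 control sample whose spread between mice was not measured, and every mouse carried the NOD background. Cy5 always held the hyperglycemic mouse, so the dye and the glycemic state cannot be told apart for a gene.

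Cells that prepare to divide load the Mcm2 to Mcm7 ring onto DNA at replication origins, and it later unwinds the helix at the fork. Pcna encircles the new DNA and holds the polymerases in place, Top2a untangles the copied chromosomes, Mki67 coats the chromosomes of dividing cells, and Birc5 (survivin) belongs to the complex that controls chromosome attachment to the spindle. In a lymph node these transcripts are known mainly from lymphocytes that divide after meeting antigen. In whole tissue, fewer dividing cells and less RNA per dividing cell cannot be told apart.

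A log2 ratio above 0 stands for more signal from the hyperglycemic mouse than from the pool. Ratios are given as the authors' deposited log2 ratios and from a second fit, the scanner-signal fit, in which the background was modelled with an offset of 50 and the ratios were normalized by loess within each array. In both, limma tested the mean of both mice against 0, and a gene was called at an adjusted p under 0.05 over all probes tested. Both sets of values come from the same spots and are not independent of each other.

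In the deposited ratios 3 of the 8 genes with a value were called. Pcna fell to a log2 ratio of -0.67 ± 0.10 (SD, n = 2; 1.59-fold lower), Mki67 fell to -0.54 ± 0.01 (1.46-fold lower), and Birc5 rose to 0.96 ± 0.68 (1.94-fold higher). The other 5, Mcm3, Mcm4, Mcm5, Mcm6 and Mcm7, were not called. Of all 4406 genes there, 25% were called higher and 18.4% lower, against 12.5% and 25% of these 8. With so few genes, those shares are near the background and are no result about the group. In the scanner-signal fit limma called 0 of 9 genes in either direction, with 2 of them, Mcm6 and Pcna, at an unadjusted p under 0.05. There 5.15% of all 7297 genes were called higher and 0.493% lower, and 1514 of the 7297 had an unadjusted p under 0.05. The 2 of 9 are thus near the background and no result about Mcm6 or Pcna. The plot of log2 ratios by mouse shows each value.

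**Figure D1:**
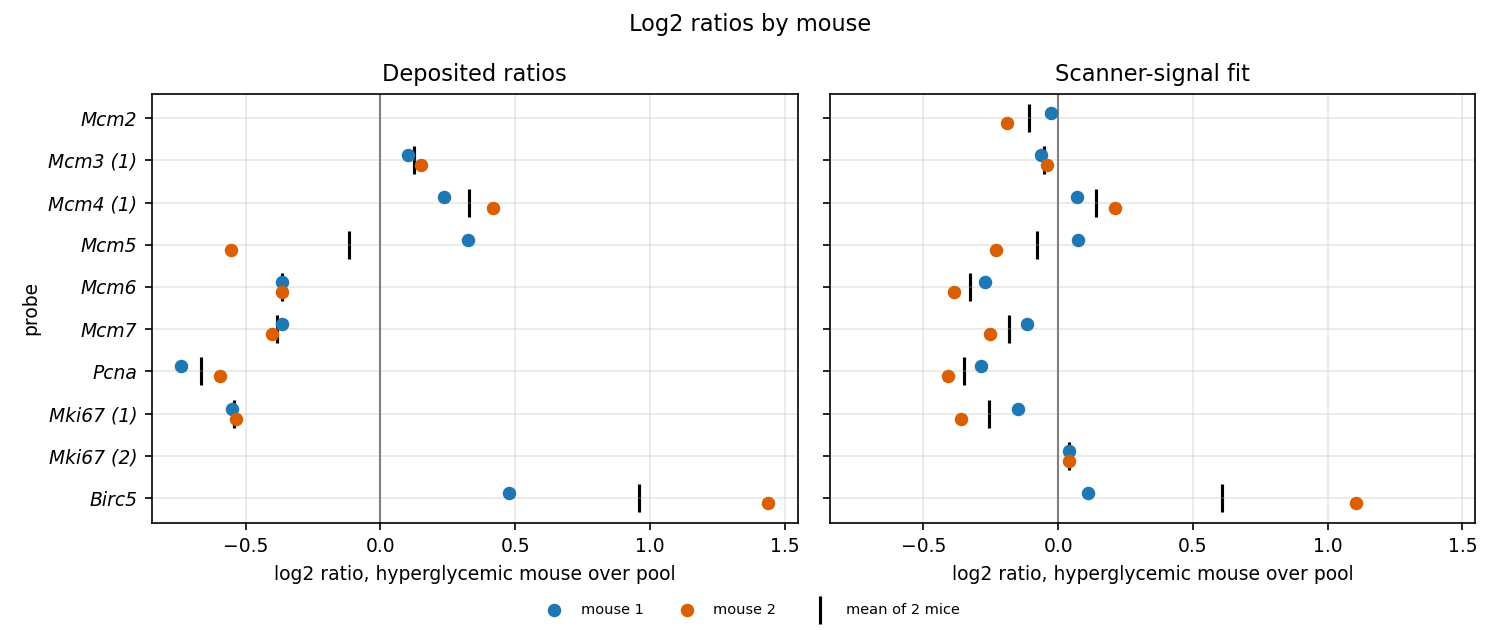
Log2 ratio of each hyperglycemic mouse over the pool (x axis) for the 10 probes tested in the scanner-signal fit, in the deposited ratios (left) and the scanner-signal fit (right). Points are the 2 mice and black bars their mean; Mcm2 and Mki67 (2) have no deposited ratio. Pcna, Mki67 (1), Mcm6 and Mcm7 lie below 0 for both mice in both panels, and Birc5 lies above 0 with mouse 2 at 1.44 in the deposited ratios.

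The Cy5 channel was dim for every probe of these genes. Over arrays 1 and 2 as a whole, 14.5% and 16.4% of gene spots were well above background in Cy5. In Cy3, which held the same pool on each array, those shares were 21.7% and 63.0%. Of the 15 probes, 10 were well above background in Cy3 on both arrays and 8 in Cy5 on both arrays, 1 each for Mcm3, Mcm4, Mcm5, Mcm6, Mcm7, Pcna, Mki67 and Birc5. For these 8 the Cy5 spot signal ran from 52.9 to 91.3 on array 1 and from 48.2 to 173 on array 2, over local Cy5 backgrounds between 29 and 39 for all 15 probes. The Cy3 signals of the same 8 probes ran from 1494 to 8568 on array 1 and from 782 to 4698 on array 2. Of the 5072 gene probes in the deposited table, 5071 were well above background in each channel of each array. Mcm2 and Top2a, dim in the hyperglycemic mice, have no deposited ratio. No spot was saturated.

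**Figure D2:**
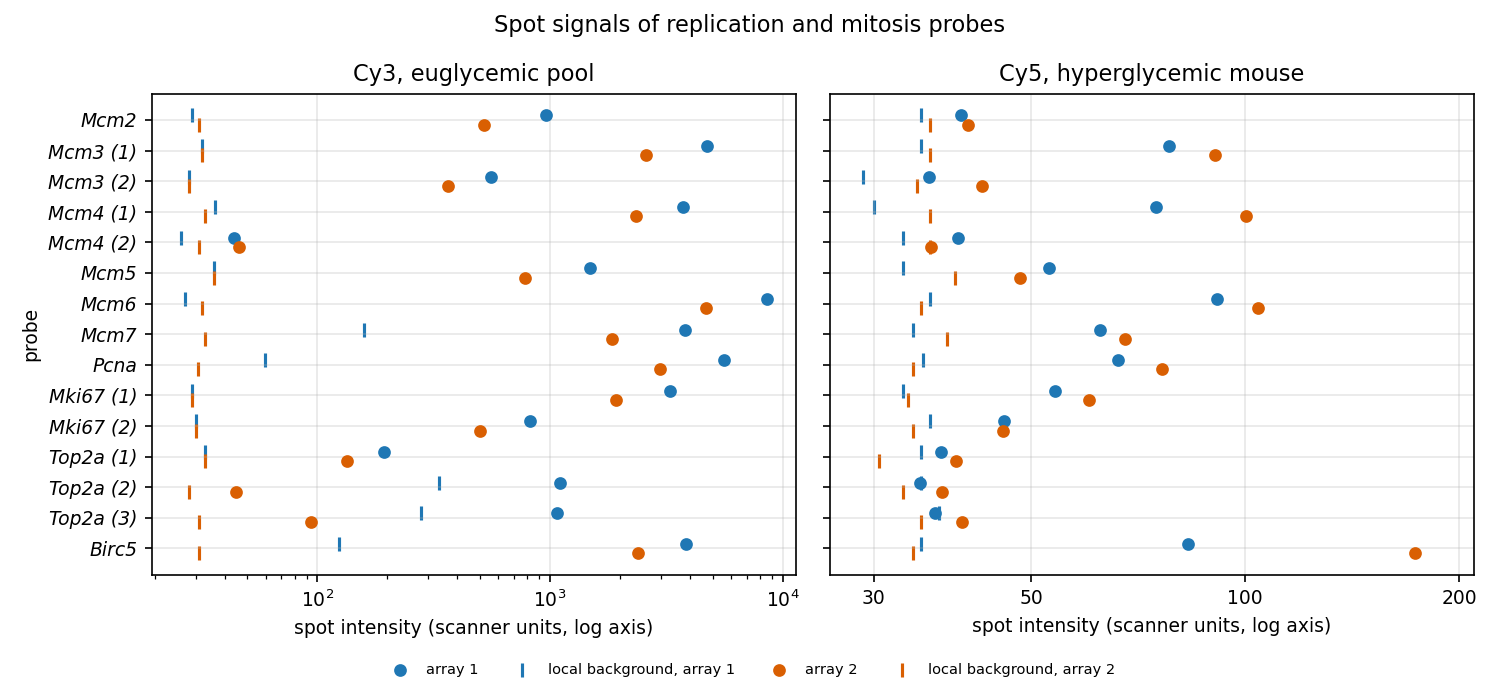
Spot intensity in scanner units (x axis, log scale) of all 15 probes in Cy3 (left, the euglycemic pool) and Cy5 (right, the hyperglycemic mouse), with the local background of each spot as a tick. Each colour is an array, and Pcna is the mean of its 10 spots. The Cy5 points of all Top2a probes lie between 34.9 and 39.9, beside their background, while the Birc5 point of array 2 is at 173.

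Promoter letters are shown for Mcm6, Pcna, Mki67 and Birc5, the called genes and the helicase subunit whose deposited ratios were closest between the mice. Each is the stretch of 120 bases before the start of the gene in RefSeq, build GRCm38.p6, from a C57BL/6J genome rather than NOD. Capitals mark matches on either strand to the E2F letters (TTTCCCGC, TTTGGCGC, TTTCGCGC or TTTGCCGC), to the CHR letters TTTGAA, or to CCAAT. E2F factors are known to drive genes of the start of DNA replication, and CHR elements genes of mitosis.
Mcm6, chr1:128359706-128359825, minus strand: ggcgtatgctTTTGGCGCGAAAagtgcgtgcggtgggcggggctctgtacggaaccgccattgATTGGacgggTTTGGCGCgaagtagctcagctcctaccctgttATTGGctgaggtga
Pcna, chr2:132253181-132253300, minus strand: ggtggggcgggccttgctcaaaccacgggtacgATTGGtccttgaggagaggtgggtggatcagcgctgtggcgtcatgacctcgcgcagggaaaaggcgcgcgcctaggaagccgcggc
Mki67, chr7:135716380-135716499, minus strand: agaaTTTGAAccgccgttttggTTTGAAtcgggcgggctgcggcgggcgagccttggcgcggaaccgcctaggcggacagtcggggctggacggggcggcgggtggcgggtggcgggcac
Birc5, chr11:117849117-117849236, plus strand: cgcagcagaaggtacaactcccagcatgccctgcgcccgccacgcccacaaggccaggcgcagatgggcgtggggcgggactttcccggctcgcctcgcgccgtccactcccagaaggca

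The search covered 250 bases before the start of the 9 genes that matched a promoter entry, all but Mcm4. E2F letters stood in 3 of the 9, Mcm5, Mcm6 and Mcm7, against 1.86% of 32851 promoters of the same length. A member counted if any of its starts matched, while the background counted each promoter on its own. Mcm7 had more than 1 start, and its E2F match, 165 bases before the start, stood at only 1 of them. Mcm6 held 3 matches, which begin 110, 106 and 47 bases before the start, and the first pair overlap. CHR letters stood in Mcm2, Mki67 and Top2a, against 16% of all promoters, with a pair in Mki67 at 116 and 98 bases. CCAAT stood in 8 of 9, all but Birc5, against 33.8%. Pcna held 1 CCAAT match and no E2F or CHR letters in this window, and Birc5 held none of the 3 motifs. A match is a description of letters and not of binding.

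Among the helicase subunits, Mcm6 and Mcm7 were below 0 for both mice, Mcm3 and Mcm4 above 0 for both mice in the deposited ratios, and Mcm5 differed in sign between the mice. Mcm6 (mm8 chromosome 1, 130159147 to 130159206) read 91.3 in Cy5 and 8568 in Cy3 on array 1, and 104 and 4698 on array 2. Its deposited log2 ratios were -0.37 for mouse 1 and -0.36 for mouse 2, a mean of -0.37 with a 95% interval from -0.72 to -0.0076 (limma adjusted p = 0.0895). Both mice were lower than the pool by nearly the same amount, and the adjusted test did not pass. In the scanner-signal fit Mcm6 was at -0.27 and -0.39 (limma adjusted p = 0.157).

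Mcm7 (chromosome 5, 138394485 to 138394544), another subunit of the same ring, was at -0.37 and -0.40 in the deposited ratios, a mean of -0.38 ± 0.02 (SD, n = 2; limma adjusted p = 0.0780). Its scanner-signal ratios were -0.12 and -0.25 (limma adjusted p = 0.378). Both mice lay on the same side of the pool in each set of values, without passing the test. Of all genes in the deposited ratios, 23.4% lay below Mcm6 and 22.6% below Mcm7.

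Mcm4 (chromosome 16, 15537857 to 15537916), part of the catalytic core of the helicase, was at 0.24 and 0.42 in the deposited ratios, a mean of 0.33 ± 0.13 (SD, n = 2; limma adjusted p = 0.128), and at 0.070 and 0.21 in the scanner-signal fit (limma adjusted p = 0.498). Centring each array on its median gave -0.74. Its second probe, 9001 bases away at 15546858 to 15546917, was well above background in neither channel on either array, so the value is that of 1 probe. Mcm3 (chromosome 1, 20788189 to 20788248) was at 0.10 and 0.15 in the deposited ratios (limma adjusted p = 0.534) and at -0.064 and -0.040 in the scanner-signal fit (limma adjusted p = 0.792). The sign of Mcm3 thus differed between the 2 sets of values, at sizes that did not pass in either. Its second probe, at 20790433 to 20790949, was not well above background in Cy5 on either array.

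Mcm5 (chromosome 8, 78023523 to 78023583), the subunit beside Mcm2 in the ring, read 52.9 in Cy5 on array 1 and 48.2 on array 2, the lowest Cy5 signals among the 8 probes with a deposited ratio. Its deposited ratios were 0.32 for mouse 1 and -0.55 for mouse 2, a mean of -0.11 ± 0.62 (SD, n = 2; limma adjusted p = 0.701). The mice stood on opposite sides of the pool, 0.88 apart, and the scanner-signal ratios did so as well, at 0.073 and -0.23 (limma adjusted p = 0.742). Over the 8 genes, 3 were above 0 and 4 below 0 for both mice in the deposited ratios, against 44.6% and 37.2% of all genes. Over the 9 genes of the scanner-signal fit those counts were 2 and 6, against 31.9% and 44% of all genes.

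Mcm2 (chromosome 6, 88849266 to 88849325), the subunit that many stains for dividing cells detect, was well above background in the pool but not in either hyperglycemic mouse. Its Cy5 signals were 39.7 over a background of 35 on array 1 and 40.7 over 36 on array 2, beside Cy3 signals of 964 and 520. The scanner-signal ratio, which is open to dye bias, was -0.11 ± 0.11 (SD, n = 2; limma adjusted p = 0.603). Its 95% interval, from -0.36 to 0.14, spanned both signs, so no minimum difference is given. The Agilent processed signals gave -1.60 and -1.73, a mean of -1.67 (limma adjusted p = 0.0575 over all probes of the same filter). Both mice were below the pool in these sets of values, while centring each array on its median in place of loess gave 0.53, so no single fold is given.

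Pcna (chromosome 2, 131941125 to 131941262) was printed as 10 replicate spots of 1 probe on each array, which shows the technical error of a single spot. Its Cy5 signals ran from 58.4 to 76.4 with a median of 66.1 on array 1, and from 67.5 to 86.1 with a median of 77.2 on array 2. Its Cy3 signals ran from 5244 to 6013 and from 2823 to 3234. The processed log2 ratio ran from -0.99 to -0.40 over the spots of array 1 and from -0.88 to -0.35 over those of array 2, so all 10 spots were below 0 on each array. The SD between spots was 0.168 on array 1 and 0.165 on array 2. The mean was -0.74 for mouse 1 and -0.60 for mouse 2, a difference of 0.14 between the mice.

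The mean deposited ratio of Pcna, -0.67, had a 95% interval from -1.03 to -0.30 (limma adjusted p = 0.0126), and 11.2% of all genes lay below it. In the scanner-signal fit Pcna was at -0.29 and -0.41, with all 10 spots below 0 on each array, a mean of -0.35 and a limma adjusted p of 0.141. The direction for both mice was the same in each set of values, while the call stood in the deposited ratios alone. Replicate spots are technical and do not add to the 2 mice.

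**Figure D3:**
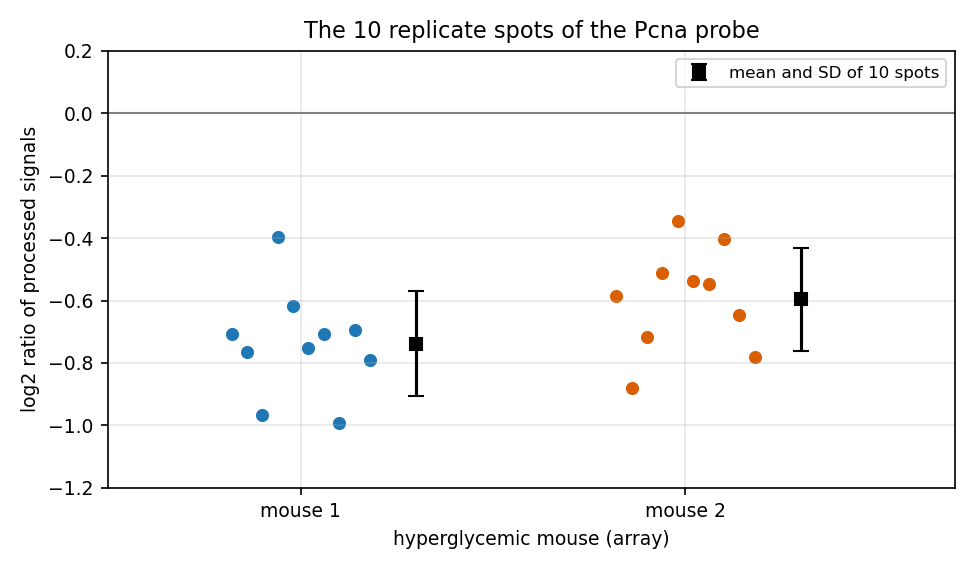
Log2 ratio of the Agilent processed signals (y axis) for each of the 10 Pcna spots on the array of each hyperglycemic mouse (x axis). Squares and bars are the mean and SD of the spots, -0.74 ± 0.168 for mouse 1 and -0.60 ± 0.165 for mouse 2; every spot lies below 0.

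Spot error bears on the other genes, each of which had 1 spot a probe. Among probes with at least 5 spots and well above background in both channels, the median SD between spots of the processed ratio was 0.184 on array 1 (44 probes) and 0.195 on array 2 (57 probes). The ratios of Mcm3, at 0.10 and 0.15, were smaller than that SD. Those of Mcm4, Mcm5, Mcm6, Mcm7, Mki67 and Birc5 were larger than it in size for both mice, with opposite signs for Mcm5, which is a comparison of sizes and no test. The 2 deposited Mcm6 ratios lay far closer together than that SD, so their SD of 0.00031 understates the error. Limma, which shares the spread of all probes, gave Mcm6 a standard error of 0.152.

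Mki67, the gene of the Ki-67 antigen, had 2 probes that went opposite ways. The brighter (chromosome 7, 135528251 to 135528310) read 54.0 and 60.3 in Cy5 and 3282 and 1925 in Cy3, and its deposited ratios were -0.55 and -0.53 (mean -0.54, 95% interval -0.90 to -0.19, limma adjusted p = 0.0253). Both mice were lower than the pool. In the scanner-signal fit it was at -0.15 and -0.36 (limma adjusted p = 0.271). The dimmer probe, 4421 bases away at 135532672 to 135532731, was well above background in Cy5 on array 1 but not on array 2, and so has no deposited ratio. Its processed ratios were 0.76 and 0.19, and its scanner-signal ratios 0.040 and 0.039 (limma adjusted p = 0.840). The lower value of Mki67 is therefore that of 1 of its 2 probes.

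Top2a, the topoisomerase of the mitotic chromosome and a standard marker of late S phase and mitosis, could not be compared. None of its 3 probes (chromosome 11, between 98812020 and 98832164) was well above background in Cy5 on either array. The Cy5 signals were 37.3, 34.9 and 36.6 on array 1 and 39.1, 37.4 and 39.9 on array 2. In Cy3, 2 of the 3 probes were well above background on array 2 and 0 on array 1, where a pair of spots read 1100 and 1075 over local backgrounds of 332 and 280. Of all gene spots, 63.0% were well above background in Cy3 on array 2 and 21.7% on array 1. No probe of Top2a passed the filter of either fit, and no fold is given.

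Birc5 (chromosome 11, 117671735 to 117671794) was the member with the highest ratio and the largest difference between the mice. Its Cy5 signals were 83.1 on array 1 and 173 on array 2, over backgrounds of 35 and 34, beside Cy3 signals of 3841 and 2394. Its deposited ratios were 0.48 for mouse 1 and 1.44 for mouse 2 (mean 0.96, 95% interval 0.41 to 1.51, limma adjusted p = 0.0153), and 91.3% of all genes lay below it. Both mice were above the pool, and mouse 2 was above mouse 1 by 0.96. The probe had 1 spot a mouse, so this difference between the mice was not tested. In the scanner-signal fit Birc5 was at 0.11 and 1.11 (mean 0.61, limma adjusted p = 0.264). There the size rests on mouse 2, since mouse 1 alone was at 0.11, and centring each array on its median in place of loess turned the mean to -0.40.

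Other genes of replication and division were read from 5 lists of 155 genes: origin and fork proteins, nucleotide supply, control of entry into S phase, mitosis, and other proliferation genes. In the deposited ratios 33 had a value, of which 12 were higher, 7 lower and 14 not called, with a median of 0.31 against 0.058 for all 4406 genes. A gene that was dim in Cy5 has no deposited ratio, so this median leaves out genes that may be low in the hyperglycemic mice. In the processed signals, which use surrogates for dim spots, all 69 list genes of the scanner-signal filter had a median of -0.36 against -0.17 for all 7297 genes. There limma called 0 of the 69, and 31 of them had an unadjusted p under 0.05, beside 2789 of all 7297 genes. The calls among the 33 genes of the deposited ratios were 36.4% higher and 21.2% lower, beside the 25% and 18.4% of all genes there. In the scanner-signal fit 69 had a value and limma called 0 of them, and their median was -0.039 against -0.035 for all genes. There 5 of the 69 had an unadjusted p under 0.05, beside 1514 of all 7297 genes. The 19 called genes had the same sign in both sets of values, and their lowest scanner-signal adjusted p was 0.0973.

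Of 11 origin and fork genes with a deposited ratio, 5 were higher and 1 lower. These are 45.5% and 9.09%, beside 25% and 18.4% of all genes. In the processed signals, which also hold genes dim in Cy5, 24 genes of this list had a median of -0.24 against -0.17 for all genes. There 12 were below 0 and 8 above 0 for both mice, and limma called 0. In the deposited ratios Orc3 and Orc6, subunits of the complex that marks origins, were at 0.93 ± 0.27 and 0.72 ± 0.27 (SD, n = 2). Cdt1, which loads the Mcm ring onto DNA, was at 0.78 ± 0.09 (1.72-fold). Pole3, a small subunit of DNA polymerase epsilon, was at 0.70 ± 0.06, and Top2b, a topoisomerase that also acts outside division, at 0.59 ± 0.32. Pold1, the catalytic subunit of DNA polymerase delta that works with Pcna, fell to -0.74 ± 0.13. Its brighter probe, well above background in Cy5 on 1 array, has no deposited ratio and was at -0.20 in the scanner-signal fit. Of the 8 nucleotide supply genes in the scanner-signal fit, the 2 with a deposited ratio were called higher there: Dut, which removes dUTP, at 0.58 ± 0.11, and Dctpp1, another pyrophosphatase, at 0.54 ± 0.25. In the processed signals, which also hold genes that were dim in Cy5, 5 of the 8 were below 0 for both mice and the list's median was -0.71, with none called by limma. The lowest of those were Cad, an enzyme of pyrimidine synthesis, at -1.73 ± 0.79 (limma adjusted p = 0.0796), and the thymidine kinase Tk1 at -1.40 ± 0.55 (limma adjusted p = 0.0763). Both were picked after their values were seen.

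Among 5 genes of entry into S phase with a deposited ratio, 2 were lower and 1 higher. These are 40% and 20%, beside 18.4% and 25% of all genes, and with so few genes no result about the list. In the processed signals 11 genes of this list had a median of -0.77 against -0.17 for all genes. There 8 were below 0 and 2 above 0 for both mice, and limma called 0. Ccnd2, a D-type cyclin of lymphocytes, was at -1.54 and -1.40 (2.77-fold lower, limma adjusted p = 9.73e-04), and the growth regulator Myc was at -0.77 ± 0.06. Cdkn2d, an inhibitor of the kinases that D-type cyclins activate, rose to 0.85 ± 0.06. The scanner-signal ratios were -0.53 for Ccnd2 (limma adjusted p = 0.0973), -0.21 for Myc (0.358) and 0.12 for Cdkn2d (0.547). Of 10 mitosis genes with a deposited ratio 3 were higher and 2 lower. These are 30% and 20%, near the 25% and 18.4% of all genes. In the processed signals 20 mitosis genes had a median of -0.13, with 9 below 0 and 8 above 0 for both mice, and limma called 0. Cdc25b, a phosphatase that activates the mitotic kinase Cdk1, was at 1.85 and 1.94 (3.72-fold higher, limma adjusted p = 5.41e-04), and its scanner-signal ratio was 0.72 (limma adjusted p = 0.151).

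Fzr1, an activator of the anaphase-promoting complex that keeps cells in G1, was at 0.61 ± 0.24 and securin, Pttg1, at 0.58 ± 0.33. The spindle checkpoint gene Bub3 fell to -0.66 ± 0.00 and the condensin subunit Ncapd2 to -0.50 ± 0.24. Of the 5 other proliferation genes, the chromatin protein Hmgb2 rose to 0.83 ± 0.06, and the tubulin Tubb5 and the microtubule regulator Stmn1 fell to -0.58 ± 0.32 and -0.59 ± 0.43. The calls were 20% higher and 40% lower, beside 25% and 18.4% of all genes, and with so few genes no result about the list. Each list with more than 2 measured genes held calls in both directions, as the plot of replication and cell cycle lists shows.

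**Figure D4:**
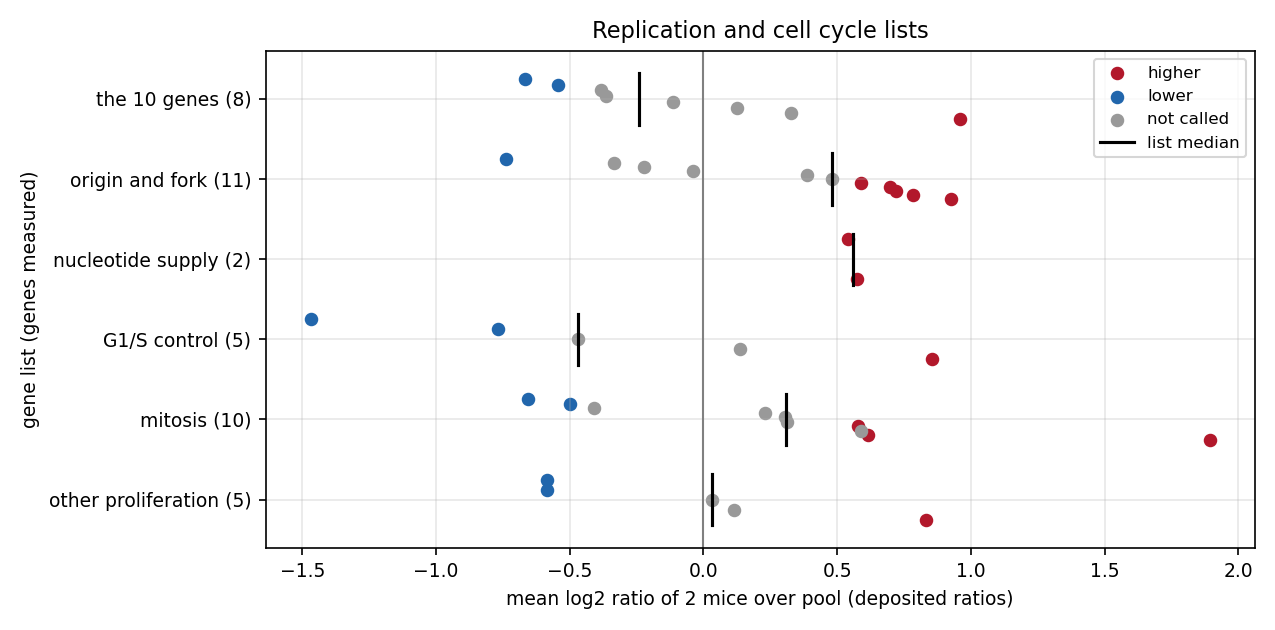
Mean deposited log2 ratio of 2 hyperglycemic mice over the pool (x axis) for each gene with a value in 6 lists (y axis, number measured in brackets), coloured by limma call, with the list median as a black bar. Genes dim in Cy5 have no deposited ratio and are not shown. The 8 measured genes of the first list have a median of -0.24 and the origin and fork genes one of 0.48. Cdc25b is the rightmost point at 1.89 and Ccnd2 the leftmost at -1.47.

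Markers of the cells in the node were read beside these genes. Of the T cell markers 6 of 6 with a deposited ratio were lower, among them Cd3d, Cd5, Lck and Cd3g, with a median of -1.39, while Cd3e and Cd4 were not well above background in Cy5 on either array. The scanner-signal fit called 1 of 7 T cell markers lower. The summed processed signal of the 9 T cell markers was 20200 in the pool and 8820 in mouse 1, and 30890 in the pool and 12840 in mouse 2. Of 4 B cell markers with a deposited ratio 2 were lower and 1 higher. From the scanner signals limma called 0 of these 4, and their median was 0.0015. There 2 were above 0 and 2 below 0 for both mice. All 6 B cell markers summed to 16390 against 11610 on array 1 and 26520 against 19010 on array 2. Cd79b, the largest part of each sum, was at -0.40 in the deposited ratios but 0.30 after scanner-signal normalization, called in neither. Of the germinal centre markers, Bcl6 was well above background in Cy5, at -0.47 ± 0.15, and Mybl1, Gcsam, S1pr2 and Rgs13 were not on either array. Hba-a1 and Alas2 of the erythroid list were higher, and that list's sums were 15740 against 40030 and 26830 against 56990. Exocrine pancreas markers were higher for 5 of 7 in the deposited ratios, among them Try5, Ctrb1, Clps and Cpa1. Their deposited log2 ratios ran from -0.082 to 1.51. In the scanner-signal fit 7 of 7 were higher, at log2 ratios from 4.02 to 6.56, so the size depended on the normalization. That fit called higher 43.2% of all genes in the brightest decile. The exocrine markers summed to 713900 in the pool against 1214000 on array 1 and 976800 against 1808000 on array 2. In the deposited ratios 2 of 2 plasma cell markers, Jchain and Mzb1, were lower, and 2 of 3 stroma markers were, Ccl19 and Col3a1. The third, Ccl21a, was at -0.42 and not called. The scanner-signal fit called 0 of 3 and 0 of 4 of these lists. There the sign turned for Jchain (0.14), Ccl19 (1.01) and Ccl21a (1.19), while Mzb1 was at -0.45 and Col3a1 at -0.21. The part of these cell markers in the values of the 10 genes was not tested.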

How the data were processed

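Array signals of 2 hyperglycemic mice, each against the same euglycemic pool, were read from 2 two-colour Agilent arrays on the same slide, scanned together. Per the file headers, Agilent Feature Extraction 10.7.3.1 gave spot and background intensity with no normalization, and processed intensity that was background-subtracted, spatially detrended and dye-normalized (linear and LOWESS), with surrogates for signals not above background. The deposited log10 ratio is that of the processed signals, Cy5 over Cy3, per the file headers. The deposited log2 ratios equal it on a log2 scale (r = 1), with column medians of 0.079 and 0.027 and no further centring. The number of arrays limits the precision.

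The scanner-signal fit used normexp background correction (offset 50), loess (span 0.3) within arrays, the mean of replicate spots, and the 8815 probes that on each array were well above background in Cy3, Cy5 or both, without control or outlier spots. Limma 3.58.1 in R 4.3.3 tested each mean ratio against 0 (two-sided, 1 residual degree of freedom per probe, Benjamini-Hochberg over all probes tested), and every adjusted p in the text is limma's. A run on simulated data drew independent ratios with no shared pool, dye effect or dim Cy5, so it does not bear on those limits. A gene took its brightest probe; names came from RefSeq (23374 probes by accession, 6733 by symbol, 2919 by synonym, 8148 unmatched). Positions of probes are in build mm8. Whether mm8 places a probe in an exon or a UTR was not looked up, and probe sequences were not used here. A bound on the Mcm2 fold was sought from the mean of the bright channel. It was set against the dim probe's own level or the lowest level well above background, whichever is higher. For Mcm2 that was its own level, so the value repeats the scanner-signal ratio and no bound is given.

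The members, lists and the rule for named genes were chosen with earlier results of these data known. All 10 members are named, with every called gene of the 5 lists (up to 6 a direction and list), and, of each cell type list, up to 4 markers by highest mean intensity, beside those that were dim in Cy5. One marker of these lists is not reported here.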

Additional observations from a re-analysis of the deposited data

How the results depend on the processing

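Of the 10 genes the scanner-signal fit called 0 higher and 0 lower. Without background correction 1 was higher and 3 lower, with median centring 1 and 6, in the deposited ratios 1 and 2, and with a trend of variance on intensity 1 was higher. Offset 10, processed signals, the filter on both channels, no filter and the mean over probes gave 0 calls. The median of these genes was -0.11, and -0.24 with offset 10, -0.87 with median centring, -0.37 in processed signals and -0.24 in the deposited ratios. Leaving out 1 mouse gave -0.23 to -0.064, values with no test since 1 mouse has no residual spread. Over all genes 376 were higher and 36 lower, against 80 and 8 with offset 10, 1019 and 786 without background correction, 2153 and 2691 with median centring, 0 and 0 in processed signals (2789 at an unadjusted p under 0.05), 1103 and 811 in the deposited ratios, 84 and 0 with the filter on both channels, 23 and 0 with no filter, 583 and 437 with the trend, and 309 and 23 with the mean over probes. For single probes, median centring turned Mcm2 to 0.53 and Mcm4 to -0.74, both called, and Mcm5 to 0.095 and Birc5 to -0.40. Mcm5 was at 0.051 without background correction, and Mcm3 turned to 0.13 in the deposited ratios and the processed signals. With median centring ratios fell with intensity over genes (Spearman's rho = -0.953 over 7297 genes, against 0.013 in the scanner-signal fit). Birc5 was called higher without background correction, in the deposited ratios and with the trend (0.61, adjusted p = 0.00109), and Pcna and Mki67 lower without background correction, with median centring and in the deposited ratios. The share of calls that were higher thus moved with the scaling, and the cause of the other changes was not tested. No paired analysis was possible because both mice were compared with 1 shared pool. The 5 probes outside the filter had ratios from -0.00052 to 0.085 with no filter. The dim Cy5 signal limits what can be seen of Mcm2 and Top2a.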

Other observations

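The opposite signs of the 2 Mki67 probes were set beside other genes of the array. Of 1290 genes with at least 2 probes in the scanner-signal fit, the 2 brightest probes had mean ratios of opposite sign in 34.6% there and in 33.8% in the Agilent processed signals. The median difference between such probes was 0.147 in the scanner-signal fit and 0.496 in the processed signals. The Mki67 probes differed by 0.294 and 1.02, and 24.8% and 22.5% of genes had a difference at least that large. Disagreement of this size between probes of a gene was thus common on these arrays.

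The moderated standard error had a lowest value of 0.152 and a median of 0.158 over all deposited probes, and the smallest mean ratio that was called was 0.444 in size. Mcm7, at -0.38 with an SD of 0.025 between the mice, and Mcm6, at -0.37 with an SD of 0.00031, lay inside that size. Stmn1, at -0.59 with an SD of 0.43, lay outside it and was called, while Smc4, at 0.59 with an SD of 0.58 (limma adjusted p = 0.0602), Tipin, at 0.48 (0.0561), and Ccnd3, at -0.47 (0.0808), lay outside it and were not. These examples were picked after their values were seen.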
